A study of Mus musculus with 6 samples.

Results

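Eukaryotic translation initiation factors are the proteins that bring the initiator tRNA, the messenger RNA and the ribosomal subunits together at a start codon. The genes described here were chosen by symbol, as every entry of the authors' deposited table of Snai2-/- against control cells that begins with Eif and a digit, and make up 6 of its 1285 genes. They were selected on values of this same comparison, because the table lists only genes with a low p. They are Eif2s1, Eif2s2, Eif2b3, Eif1a, Eif3g and Eif4a1, and all 6 had a higher mean in Snai2-/- cells. The false discovery rates (FDR) that the authors' deposited table gives for them ran from 0.395 to 0.624, so none passed 0.05. That limit was missed by all 1285 genes, so missing it does not set these 6 apart. The authors' deposited table puts even Snai2, which ranks 1 by p, at 0.0758. Bulk RNA-seq was made from mesenchymal stem and progenitor cells (MSPCs), stromal cells of the mouse bone marrow, at 8 weeks of age. The groups were 3 libraries from Snai2-/- animals, which lack the zinc-finger repressor Slug, and 3 libraries from control littermates. Each library came from 2000 sorted cells without CD45, Ter119 and CD31 and with the Nes-GFP reporter, so the cells of both groups carried that transgene, a green fluorescent protein under nestin sequences. The column headers name the groups Mutant and Wildtype, taken here to be Snai2-/- and control. Beyond that word, the sources used here do not give the genotype of the controls at this locus. The exact Snai2 allele and the sex of the animals are not given either.

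In the cap-dependent pathway, the eIF4A helicase, with the cap-binding protein and the eIF4G scaffold, unwinds the leader of a messenger RNA. The small ribosomal subunit, carrying eIF1A, eIF3 and a ternary complex of eIF2, GTP and initiator tRNA, then scans to the start codon. After recognition eIF2 leaves with GDP and is recharged by eIF2B, a step that stress kinases block by phosphorylating the alpha subunit of eIF2. Osteoblast-lineage cells, which the marrow stroma gives rise to, secrete much collagen, and this phosphorylation is a known point of control in such secretory cells.

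The table holds 1 normalized mean per group, in a unit that the sources used here do not name, with a ratio of Snai2-/- over control, an unadjusted p and an FDR. Only genes whose unadjusted p was below 0.05 appear in the authors' deposited table. Values of single libraries were not analysed here, so no spread between replicates, depth or overlap of the groups can be given beside any value. The members were chosen with these ratios in view, so the values below are a description and carry no test beyond the authors' own. As a check of the labels, the authors' deposited table gives Snai2 itself a mean of 9.20 in Snai2-/- cells and 636 in control cells. None of 10 MSPC markers such as Lepr and Cxcl12 was listed, so the labelled cell type could not be checked against its own markers.

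The eIF2 ternary complex held 2 listed genes among its 4. Eif2s1, which encodes the alpha subunit that stress kinases phosphorylate, was listed in the authors' deposited table with means of 96.8 in Snai2-/- cells and 76.3 in control cells. Its ratio of 1.27 was the smallest of the 6, for which the authors' deposited table gives an unadjusted p of 0.0298 (FDR 0.588). Eif2s2, which encodes the beta subunit, was listed in the authors' deposited table with means of 68.0 in Snai2-/- cells and 48.5 in control cells, a ratio of 1.40. For Eif2s2 the authors' deposited table gives an unadjusted p of 0.0218 (FDR 0.546). Both genes were therefore higher by ratio, and neither reached the FDR limit. The genes of the gamma subunit, Eif2s3x and Eif2s3y on the sex chromosomes, were not listed.

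The exchange factor eIF2B, which reloads eIF2 with GTP, held 1 listed gene among 5. Eif2b3, which encodes its gamma subunit, was listed in the authors' deposited table with means of 30.5 in Snai2-/- cells and 23.6 in control cells. Its ratio of 1.29 stood in the authors' deposited table with an unadjusted p of 0.0419 (FDR 0.624). It ranked 1124 of 1285 by p and was the member nearest to the limit of the table. Eif2b1, Eif2b2, Eif2b4 and Eif2b5, which encode the other subunits of the same complex, were not listed.

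Eif1a had the largest ratio of the 6. The gene, on chromosome 18, encodes a form of eIF1A, the small factor that binds the decoding site of the small subunit and keeps it competent to scan. The authors' deposited table gives it means of 98.3 in Snai2-/- cells and 66.5 in control cells, a ratio of 1.48. By its unadjusted p of 0.00660 the authors' deposited table ranks it 278 of 1285, and its FDR of 0.395 was the lowest of the 6. Eif1ax, which encodes the other form of eIF1A, and Eif1, Eif1b, Eif1ad and Eif5 were not listed.

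Of the 14 genes of eIF3, the large scaffold that holds the small subunit and contacts the messenger RNA, 1 was listed. Eif3g, which encodes an RNA-binding subunit, was listed in the authors' deposited table with means of 110.1 in Snai2-/- cells and 84.0 in control cells. Its ratio of 1.31 stood in the authors' deposited table with an unadjusted p of 0.0319 (FDR 0.592). The other 13 eIF3 genes, the core subunit genes Eif3a, Eif3b and Eif3c among them, were not listed.

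Among 5 genes for eIF4A helicases and their cofactors, 1 was listed. Eif4a1, which encodes the main RNA helicase of initiation, was listed in the authors' deposited table with means of 278.2 in Snai2-/- cells and 190.4 in control cells. The ratio of 1.46 came next to that of Eif1a, and the authors' deposited table gives it an unadjusted p of 0.0107 (FDR 0.462). The other helicase genes Eif4a2 and Eif4a3, and Eif4b and Eif4h, whose proteins stimulate the helicase, were not listed.

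**Figure D1:**
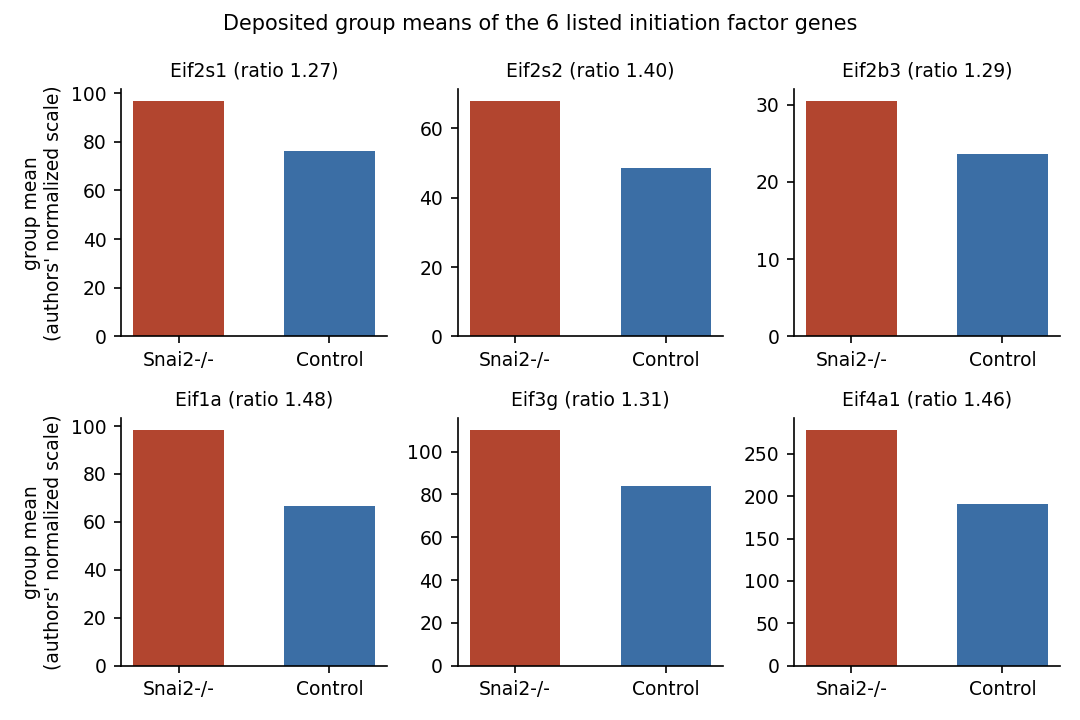
Bars give the group mean of each of the 6 genes in Snai2-/- cells (red, left) and control cells (blue, right), on the authors' normalized scale and from the authors' deposited table; each panel has its own axis from 0, there are no error bars because only group means were used, and heights are not comparable between genes. In every panel the Snai2-/- bar is the higher, by a ratio of 1.27 for Eif2s1 up to 1.48 for Eif1a.

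RefSeq annotates 56 protein-coding mouse genes whose symbols match the rule, so 50 were not listed. Such a gene either missed the p limit of 0.05 or was not tested, and these cannot be told apart here. The 6 listed genes were 10.7% of the family, while 7.69% of the 16718 genes tested were listed. Genes with a higher mean in Snai2-/- cells made up 3.77% of those tested and genes with a lower one 3.91%. The family was chosen with these results known, so nothing is read from that comparison. By role, 5 sets of factors held a listed gene. None of the 4 cap-binding eIF4E genes, the 3 eIF4G scaffold genes or the 4 genes for eIF4E-binding repressors and the eIF4E transporter was listed. The same held for the 4 eIF2 alpha kinase genes, Eif2ak1 to Eif2ak4, which include those for PKR (Eif2ak2), PERK (Eif2ak3) and GCN2 (Eif2ak4). Eif5a and Eif5a2, the subunit-joining gene Eif5b and Eif6, whose protein keeps free large subunits apart, were not listed either.

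**Figure D2:**
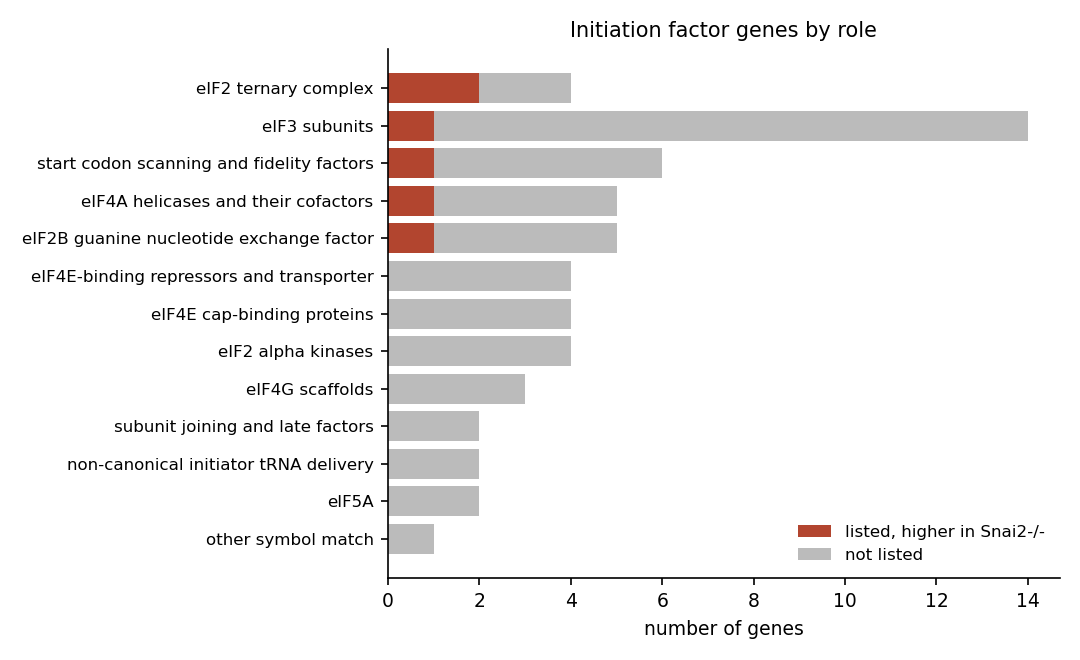
Horizontal bars count the 56 protein-coding genes by role, with genes listed as higher in Snai2-/- cells in red and genes not listed in grey; the only gene under other symbol match is Eif4a3l1. The eIF2 ternary complex has 2 red genes of 4, and eIF3, the scanning factors, the eIF4A set and eIF2B have 1 each.

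The ratios of the 6 genes were small beside those of other listed genes. Their median log2 ratio was 0.44, within a range of 0.34 to 0.57. All 1285 listed genes had a median of -0.36, and the 631 with a higher mean had a median of 1.19. Since 654 genes had a lower mean, the median over all 1285 fell among the lower genes and measures no general shift. Eif2s1 had a larger ratio than 15 of those 631 genes and Eif1a a larger ratio than 115 of them. All 6 had a normalized total above 99.8, the median total in the authors' deposited table. Among genes with a higher mean in Snai2-/- cells, the 324 above that median total had a median ratio of 1.67 and the 307 below it 3.31. The members thus lay among the larger totals, where the ratios of listed higher genes were smaller. Only genes with an unadjusted p below 0.05 are listed, so this describes the listed genes and need not hold for all genes tested.

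**Figure D3:**
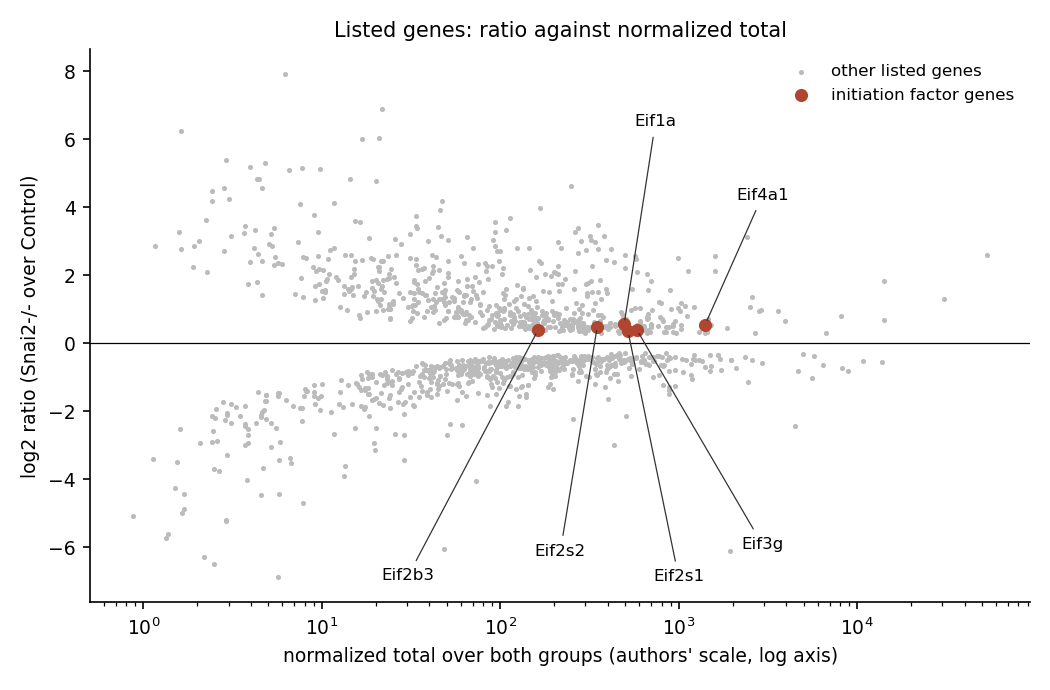
Each point is a listed gene, with its normalized total over both groups on a log axis and its log2 ratio of Snai2-/- over control, from the authors' deposited table; 7 genes with a group listed at 0.0001 are left out. The 6 initiation factor genes (red) lie between log2 ratios of 0.34 and 0.57, toward the lower edge of the upper cloud.

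The 6 genes lay on 6 different chromosomes, none of them chromosome 16, which holds Snai2. On GRCm38 (GENCODE M21), Eif2s1 spans chromosome 12, 78861819 to 78887010 on the plus strand, and Eif2s2 chromosome 2, 154871410 to 154892935 on the minus strand. Eif2b3 spans chromosome 4, 117019402 to 117087306 on the plus strand, Eif3g chromosome 9, 20894349 to 20898623, and Eif4a1 chromosome 11, 69666936 to 69672423, both on the minus strand. The kit does not mark strand, and 1 protein-coding gene, agouti (symbol a), spans the whole of Eif2s2 on the opposite strand. Shared sequence was counted as 50-base words of each gene's GENCODE transcripts that also occur in transcripts of other genes. For Eif4a1 28.4% of words were shared, most of them with the processed pseudogene Eif4a-ps4, and for Eif2s2 10.3%, most of them with the processed pseudogene Gm9892. Agouti was not among the 78 genes that shared a word with Eif2s2 on either strand. Its overlap with Eif2s2 was thus one of gene spans, with no 50-base word common to their transcripts. The share was 5.76% for Eif2s1, 2.62% for Eif1a, 2.27% for Eif3g and 0 of 6515 words for Eif2b3. For Eif3g the 46 shared words were spread over 303 other genes, so that share does not measure close copies. The values of Eif4a1 and Eif2s2 are therefore the less certain ones, since the sources used here do not say how such reads were counted.

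Slug binds the E-box CAGGTG, so the sequence before the start of the members was examined for it and for other common promoter motifs. RefSeq promoters were at hand for 4 of the 6 genes, Eif4a1, Eif2s1, Eif3g and Eif2s2, and not for Eif1a and Eif2b3. These 4 are shown because they were the ones at hand. Their genes each had a higher mean in Snai2-/- cells, but they were selected on that same comparison. Each is the 250 bases before the RefSeq start (GRCm38.p6), 5′ to 3′ on the strand of the gene. That start is not always the edge of the GENCODE span given above. The Eif2s1 window lies wholly inside its GENCODE span, and the windows of Eif3g and Eif2s2 reach into theirs. By that annotation such bases are part of the gene and not before it. Capitals mark each match, on either strand, to the Slug E-box, to the Myc-type E-box CACGTG, to the CCAAT box or to the GC box GGGCGG, and no matches overlapped in these 4 sequences.
Eif4a1, chr11:69672424-69672673, minus strand: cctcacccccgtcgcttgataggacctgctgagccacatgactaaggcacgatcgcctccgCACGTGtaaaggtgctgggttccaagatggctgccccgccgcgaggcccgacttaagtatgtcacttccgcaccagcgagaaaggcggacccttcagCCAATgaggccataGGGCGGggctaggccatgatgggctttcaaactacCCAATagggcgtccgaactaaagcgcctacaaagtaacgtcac
Eif2s1, chr12:78861822-78862071, plus strand: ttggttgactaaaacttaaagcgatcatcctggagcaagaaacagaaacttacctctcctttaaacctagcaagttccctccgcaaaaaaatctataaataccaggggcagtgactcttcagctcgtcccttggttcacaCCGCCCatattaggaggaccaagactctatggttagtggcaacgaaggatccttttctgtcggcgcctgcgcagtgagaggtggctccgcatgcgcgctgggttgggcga
Eif3g, chr9:20898591-20898840, minus strand: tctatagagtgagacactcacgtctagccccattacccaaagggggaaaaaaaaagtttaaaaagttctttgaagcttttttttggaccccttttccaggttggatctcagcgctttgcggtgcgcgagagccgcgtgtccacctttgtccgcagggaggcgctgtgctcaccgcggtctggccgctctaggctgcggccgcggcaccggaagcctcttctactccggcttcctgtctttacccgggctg
Eif2s2, chr2:154892907-154893156, minus strand: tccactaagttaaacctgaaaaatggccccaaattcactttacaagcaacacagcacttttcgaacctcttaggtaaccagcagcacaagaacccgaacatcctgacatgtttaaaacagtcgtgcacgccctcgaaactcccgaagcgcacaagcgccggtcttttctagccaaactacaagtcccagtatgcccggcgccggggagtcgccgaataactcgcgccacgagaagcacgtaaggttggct

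None of the 4 sequences held CAGGTG on either strand, a hexamer found in 17.2% of all 32851 promoters of the same length. This says only that these letters are not in these windows. Eif4a1 held the other 3 motifs. Its Myc-type E-box lay 189 to 184 bases before the start and is found in 6.02% of all promoters. Its CCAAT boxes lay at 92 to 88 and at 43 to 39 bases, a motif of 33.8% of all promoters, and its GC box at 78 to 73 bases, a motif of 32.7%. In Eif2s1 a GC box lay on the opposite strand, at 110 to 105 bases before the RefSeq start and inside the GENCODE span. Eif3g and Eif2s2 held none of the 4 motifs. No motif was therefore common to the 4 promoters. They held 18 CG dinucleotides each in Eif4a1, Eif3g and Eif2s2 and 12 in Eif2s1, against a median of 6 over all promoters. Their GC content, from 50.4% to 58.8%, lay around the median of 52.4% over all promoters.

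Other genes of protein synthesis and its control were counted in 7 lists of 173 genes in all, whether or not they were tested. Of the 173, 14, or 8.09%, were listed, beside 7.69% of all genes tested. The share differed by list, from 0% of mitochondrial factors and 2.44% of 82 ribosomal protein genes to 19.0% of integrated stress response genes. Of these 14, 12 had a higher and 2 a lower mean in Snai2-/- cells, and none reached the FDR limit of 0.05. Of all genes tested, 3.77% were listed as higher and 3.91% as lower. Of 16 genes counted as partners of initiation, some of them acting before or after it, 2 were listed, both higher. Ltv1, a gene for assembly of the small ribosomal subunit, was listed in the authors' deposited table with means of 48.0 in Snai2-/- cells and 31.2 in control cells, with p = 0.00744 unadjusted. Abce1, whose protein splits ribosomes after termination and so returns subunits to initiation, was listed in the authors' deposited table with means of 101.7 in Snai2-/- cells and 79.7 in control cells. Of 11 elongation and termination genes only Gspt2, a release factor gene, was listed, and the authors' deposited table gives it means of 12.6 in Snai2-/- cells and 8.41 in control cells. None of 6 mitochondrial translation factor genes was listed.

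Of 20 cytosolic aminoacyl-tRNA synthetase genes, whose products charge tRNAs with amino acids, 3 were listed and all 3 were higher. Tars, for threonine, was listed in the authors' deposited table with means of 70.0 in Snai2-/- cells and 49.4 in control cells. Yars, for tyrosine, was listed in the authors' deposited table with means of 69.7 in Snai2-/- cells and 49.9 in control cells. Rars, for arginine, was listed at a ratio of 1.29, and the FDR of the 3 genes ran from 0.444 to 0.592 in the authors' deposited table. Their ratios of 1.29 to 1.42 lay within the range of the 6 initiation factor genes.

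The integrated stress response is the programme that follows phosphorylation of the protein of Eif2s1, and its list of 21 genes held 4 listed genes, all higher. They are genes of amino acid supply and of the folate pathway. Asns, for asparagine synthetase, was listed in the authors' deposited table with means of 34.5 in Snai2-/- cells and 13.9 in control cells, a ratio of 2.49. Psat1, of serine synthesis, was listed in the authors' deposited table with means of 14.3 in Snai2-/- cells and 4.91 in control cells, a ratio of 2.92. The authors' deposited table gives a ratio of 2.55 for Mthfd2, of the mitochondrial folate pathway, and of 1.58 for Slc3a2, the heavy chain of amino acid transporters. The FDR of these 4 genes ran from 0.391 to 0.616 in the authors' deposited table. The transcription factor genes Atf4, Atf3, Atf5 and Ddit3, the targets Trib3 and Chac1, and the phosphatase genes Ppp1r15a and Ppp1r15b were not listed. The listed genes were 19.0% of that list against 7.69% of all genes tested, given as a description with no test.

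The kinase complex mTORC1 promotes initiation by releasing the cap-binding protein from its repressors. In the mTORC1 pathway 2 of 17 genes, or 11.8%, were listed, both lower. Over all genes tested 7.69% were listed, 3.91% as lower, and the difference was not tested. Rptor, which encodes the mTORC1 scaffold raptor, was listed in the authors' deposited table with means of 9.10 in Snai2-/- cells and 15.2 in control cells, at an unadjusted p of 0.0111. Deptor, which encodes an inhibitor of the mTOR kinase, was listed in the authors' deposited table with means of 99.0 in Snai2-/- cells and 141.6 in control cells, at an unadjusted p of 0.0362. A component of the complex and an inhibitor thus had lower means together. Of 82 cytosolic ribosomal protein genes 2, or 2.44%, were listed, for which the authors' deposited table gives ratios of 1.25 (Rpl4) and 1.31 (Rpl36al). Rpl36al has the close paralog Rpl36a, with which reads could be shared, so its value is less certain.

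**Figure D4:**
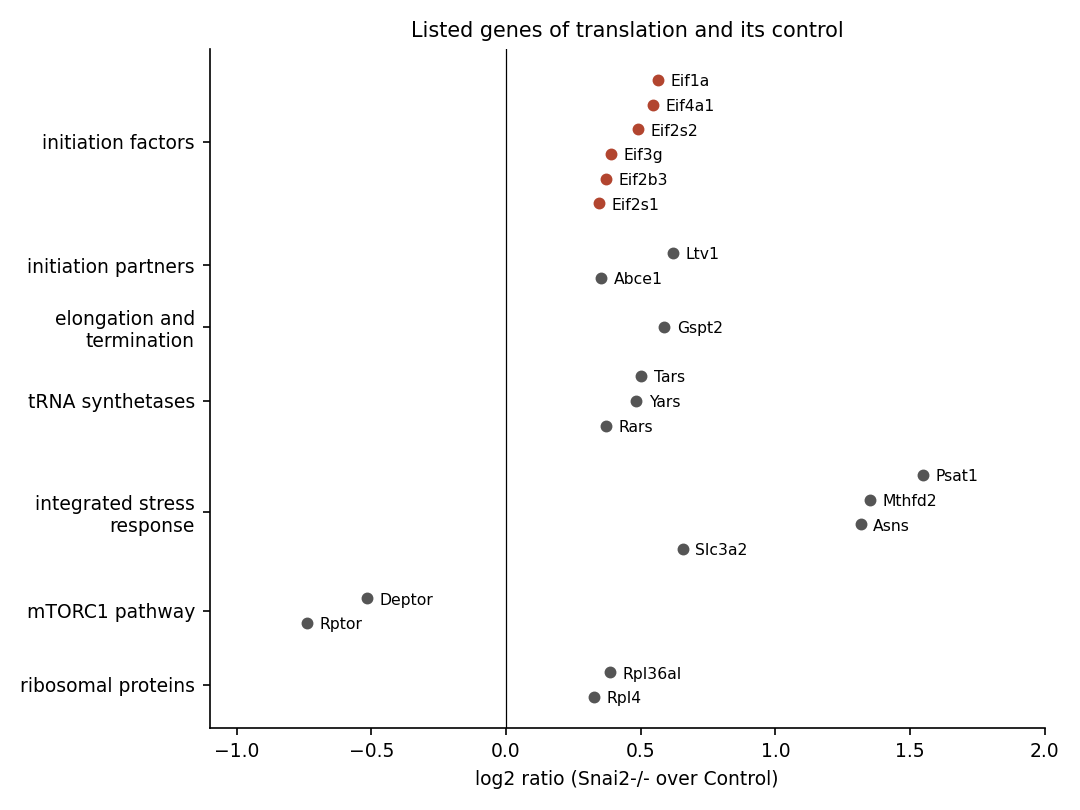
Points give the log2 ratio of Snai2-/- over control for each listed gene, by list, from the authors' deposited table, with the 6 initiation factor genes in red; the mitochondrial list had no listed gene. All genes but Rptor and Deptor lie right of 0, and Asns, Psat1 and Mthfd2 lie farthest to the right.

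Markers of other cells were listed in the same comparison, some of them of types that the sort without CD45 and Ter119 selects against, such as neutrophils and erythroid cells. Of 6 neutrophil markers 5 were listed, Ngp, S100a9, Camp, Ltf and Lcn2, all higher, with summed means of 728.9 in Snai2-/- cells and 167.3 in control cells, and S100a8 was not listed. Of 4 erythroid markers Car1 was listed, for which the authors' deposited table gives means of 137.1 in Snai2-/- cells and 45.7 in control cells, whereas none of 3 leukocyte and none of 4 endothelial markers was listed. Of 10 osteoblast markers, a list added after the values were seen, 5 were listed, Alpl, Col1a1, Spp1 and Dmp1 higher and Phex lower, with summed means of 23928 in Snai2-/- cells and 6024 in control cells. Most of the first sum was Col1a1, and without it the sums were 8683 in Snai2-/- cells and 3478 in control cells. For comparison, 7.69% of all genes tested were listed, 3.77% as higher and 3.91% as lower. The marker lists were not tested against these shares. No listed marker met the FDR limit of 0.05. By the authors' deposited table, the FDR spanned 0.518 to 0.649 for the neutrophil genes and Car1. For the osteoblast genes it spanned 0.473 to 0.650. Because only group means were used, whether a single library makes up such a sum cannot be seen. Whether the marker differences have a part in the means of the initiation factor genes was not tested. In bulk RNA, more cells of a type and more RNA per cell cannot be told apart.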

How the data were processed

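Bulk RNA-seq of sorted mouse MSPCs was compared between 3 Snai2-/- and 3 control libraries, whose groups come from the sample titles. Per the labels' protocols, libraries were made with SMART-Seq v4 and Nextera XT, which do not mark the strand. Trim Galore, HTSeq, edgeR 3.12.0 and the build mm10 are named, without their roles, per the submitters' processing notes. The sources used here do not give the aligner, the annotation or the test behind the p-values.

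Per the file headers, the deposited table holds for each gene a p-value, a step-up FDR, a ratio of group means, a signed fold change score and least-squares means. Its means and totals are normalized signal values made by the authors. No total is a whole number within 1e-06, and each equals 3 times the sum of both means. The header's Mutant was taken to be Snai2-/- and its Wildtype to be control. The number of genes tested, 16718, was recovered from the p-value and FDR columns by code checked on simulated tables. Depth per library is unknown, so no interval is given. The labels do not state that libraries came from separate animals, and the spread behind the p-values may be technical.

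Log2 ratios, counts, medians and sums of the listed means were computed from the deposited means, and no model was fitted. The members and lists were chosen with earlier results of these data known. Named are every match to the rule, Snai2 and every listed gene of the lists, which hold at most 6 listed genes each; genes that were not listed are named by role. The osteoblast list was added later. Motifs and 50-base words were matched exactly on both strands. Python 3.11.15, numpy 2.4.6, pandas 2.3.3 and matplotlib 3.10.9 were used.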

Additional observations from a re-analysis of the deposited data

How the results depend on the processing

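With the limit on the authors' unadjusted p at 0.02, 2 of the 6 initiation factor genes were left, Eif1a and Eif4a1, and at 0.01 only Eif1a, 1 gene. At 0.02 the 14 listed genes of the translation lists became 6, an alternative chosen after seeing the data. These counts fell because fewer genes pass a stricter limit. A minimum mean of 1 in both groups, or leaving out kinases and binding proteins, could not remove a member, since every member mean was above 1 and no kinase or binding protein gene was listed. The median log2 ratio of 0.44 became 0.38 with a pseudocount of 10 and 0.57 at p below 0.01. Its sign could not change under these alternatives, because all 6 genes have a ratio above 1, so these values are no measure of stability. No paired analysis was possible because only group means were used. For that reason leaving out libraries, DESeq2 size factors and other filters on low counts were not run. With 1 mean per group, whether 1 library decides a value cannot be seen.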
